A study of Homo sapiens with 12 samples.

Results

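Asparagine, proline and glutamine enzymes are the subject here, 8 genes chosen by name from the 26258 genes of the deposited table: *ASNS*, *ALDH18A1*, *PYCR1*, *PYCR3*, *GPT2*, *GOT1*, *GLUL* and *GLUD1*. All 8 were found by their Entrez identifiers, and 7 passed a filter on low values that left 13515 genes for testing. RNA was sequenced from HLE cells, a human hepatocellular carcinoma line, transfected with a control siRNA (siCtr), with siRNA against both YAP and TAZ (siY_T) or with siRNA against ATF4 (siATF4). Cells with each siRNA received either DMSO, the vehicle, or Sorafenib (SRF), a kinase inhibitor used in liver cancer, at 5 µM per the labels, which gave 6 groups of 2 libraries and 12 libraries in all. All groups shared the cell line and a medium with 2 mM glutamine, so the data describe 1 cell line and transient knockdown. The question behind the design is which genes depend on YAP/TAZ and on ATF4, with and without the drug. The study's methods speak of biological triplicates, while the labels do not say how the 2 libraries of a group here relate to them, so the p-values measure the spread between these libraries, which may be partly technical.

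These enzymes make amino acids that cells can build for themselves. Asparagine synthetase moves the amide of glutamine onto aspartate, glutamine synthetase joins ammonia to glutamate, and glutamate dehydrogenase releases it again. Proline is built from glutamate by P5C synthase and then P5C reductase, and the transaminases GOT1 and GPT2 exchange amino groups between glutamate and aspartate or alanine. ATF4 is a transcription factor of the amino acid response, which cells use when amino acids run short, and *ASNS* is among its classical targets. YAP and TAZ are co-activators that act through TEAD factors.

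Values are CPM, reads per 1000000 reads on genes. With 2 libraries a group, fold changes were taken on the log2(CPM + 0.5) scale and tested with limma across all 13515 genes, in 1 fit of the 12 libraries. A gene was called where its log2 fold change was 0.58 or more in either direction with an unadjusted P under 0.05. The words "rose" and "fell" are used for changes with an adjusted p under 0.05 in this fit. Those of members that lost it under an alternative are given in the closing section. Both siCtr groups enter 2 knockdown comparisons each, so those comparisons are not independent of each other. Libraries held 41408348 to 53619732 reads on genes. The siRNAs acted on their targets: *YAP1* fell from 278 ± 2.04 CPM (SD, n = 2) in siCtr to 52.1 ± 7.83 in siY_T cells in DMSO, *WWTR1* (TAZ) from 171 ± 2.36 to 61.0 ± 10.8, and *ATF4* from 248 ± 0.204 to 98.5 ± 3.13 in siATF4 cells. *ATF4* also fell in siY_T cells, to 202 ± 6.89 CPM in DMSO. In SRF the siCtr cells held 488 ± 5.68 CPM of *ATF4*, the siY_T cells 315 ± 2.33 and the siATF4 cells 87.6 ± 4.25. Likewise *WWTR1* fell to 106 ± 2.08 CPM in siATF4 cells in DMSO. Hepatocyte markers were near 0 in all groups, with 10 markers (*ALB*, *HNF4A* and *APOB* among them) summing to 0.0643 to 2.81 CPM, while *VIM* and *KRT8* were abundant. The 4 epithelial keratin and adhesion markers, nearly all *KRT8* and *KRT18*, summed to 3222 to 3332 CPM in siCtr, 976 to 1023 in siY_T and 2140 to 2256 in siATF4 cells in DMSO. The 5 immune and endothelial markers, nearly all *CD68*, summed to 19.8 to 21.1, 26.3 to 32.4 and 72.1 to 75.1 CPM in the same groups, with *PTPRC* at or near 0. The 3 mesenchymal markers, nearly all *VIM*, summed there to 2339 to 2433, 2422 to 2691 and 2157 to 2260 CPM. Of the other mesenchymal markers, *CDH2* was at 3.77 to 6.92 CPM over all libraries. *FN1* had means of 53.2, 74.5 and 20.5 CPM in siCtr, siY_T and siATF4 cells in DMSO. The part of these shifts in the results for the members was not tested.

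In siY_T cells in DMSO, 1 of the 7 tested members was called lower and 0 higher, against 3.61% of all tested genes called lower and 11.0% called higher. In siATF4 cells in DMSO, 2 were called lower and 0 higher, against 14.1% and 8.57% of all genes. In SRF, 1 was called lower and 1 higher with siY_T (background 3.84% and 6.11%), and 3 lower and 0 higher with siATF4 (background 18.7% and 10.3%). By an adjusted p under 0.05 alone, 5, 5, 5 and 7 of the 7 members passed in those 4 comparisons, where 60.1%, 67.9%, 48.9% and 73.2% of all genes did, so passing that threshold was common in these data. The median log2 fold change of the 7 members was -0.04, -0.17, -0.04 and -0.23, against 0.07, 0.00, 0.05 and -0.01 for all genes. The balance of higher and lower calls depended on the scaling: of the called genes, 75.3% were higher with siY_T in DMSO, but 64.2% with TMM and 57.0% with quantile normalization, and 35.4% were higher with siATF4 in SRF, but 48.5% with quantile normalization. The members did not move as 1 group and are taken by role.

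**Figure D1:**
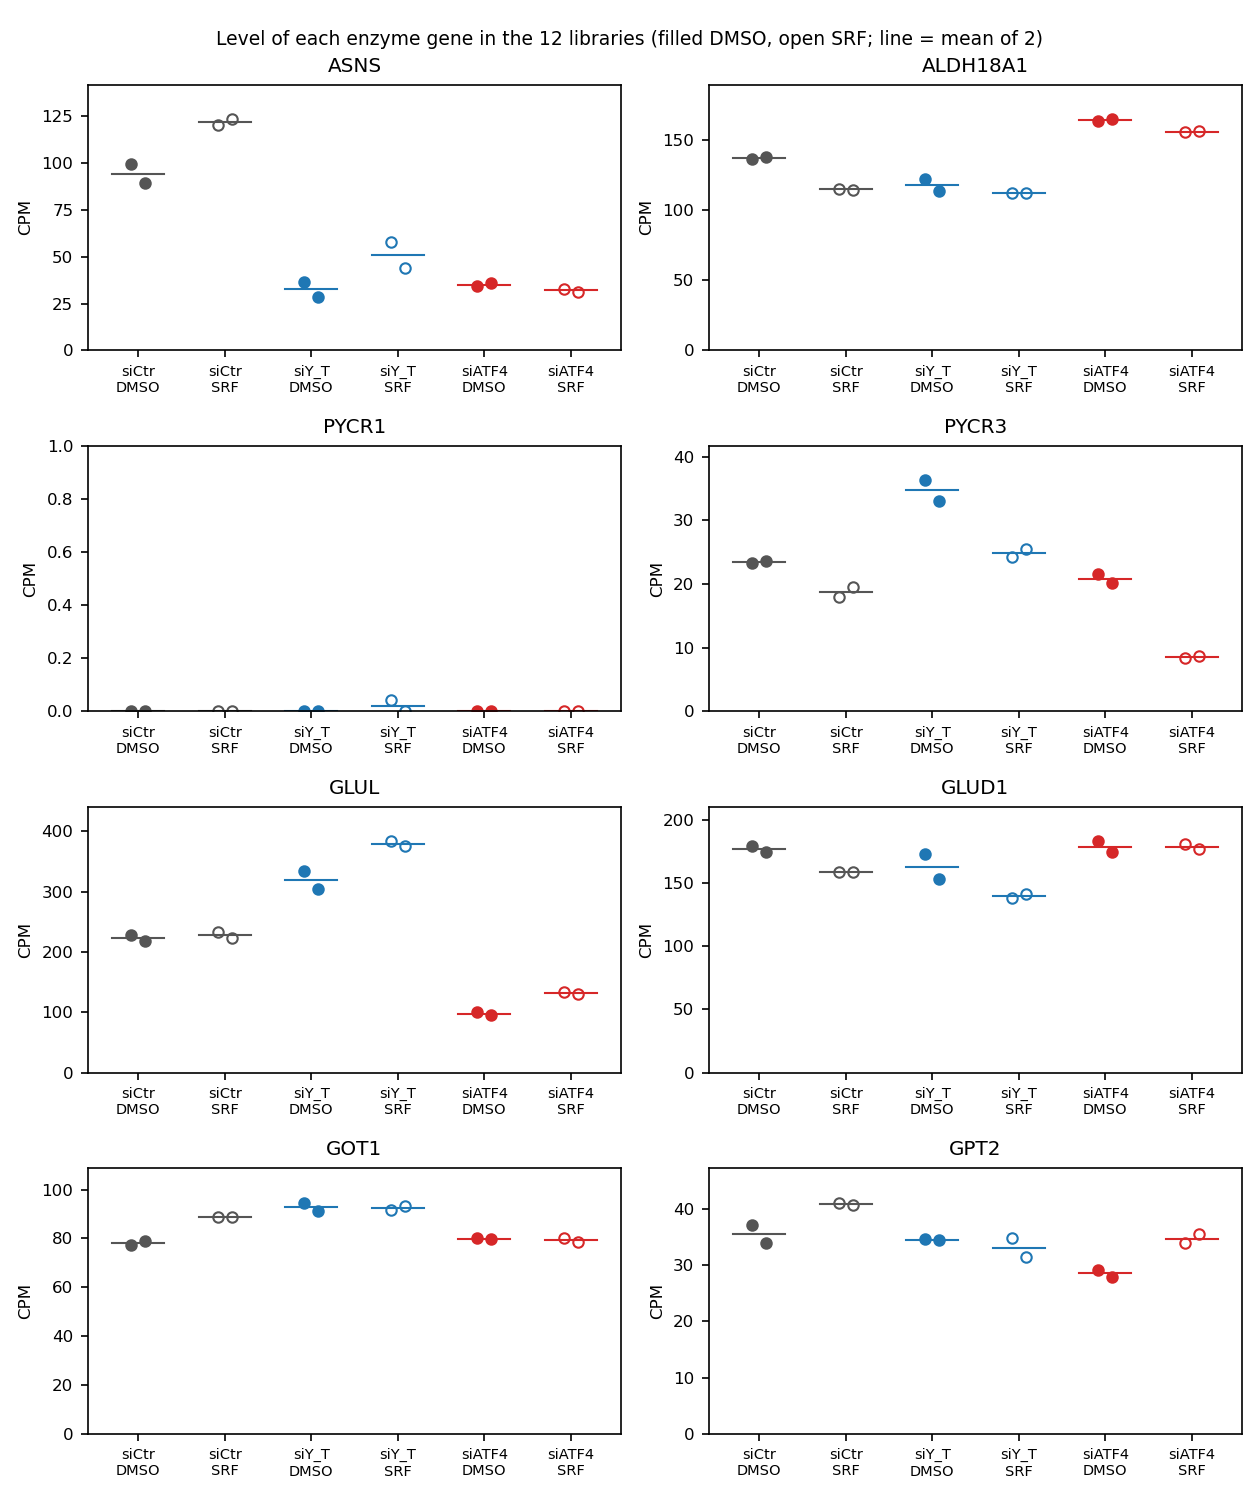
Level in CPM of each of the 8 genes in the 12 libraries, 1 panel per gene with its own axis from 0, with filled points for DMSO, open points for SRF and a line at the mean of 2 libraries. *ASNS* was high in both siCtr groups and low with either siRNA, *GLUL* was high with siY_T and low with siATF4, and *PYCR1* was listed at or near 0 throughout.

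*ASNS*, asparagine synthetase (Entrez 440, minus strand, chr7:97480989-97501854 on GRCh37, the build the submitters' processing notes call hg19), fell with both siRNAs, in DMSO and in SRF. Its CPM in siCtr cells in DMSO were 99.6 and 89.2, and in SRF 120.4 and 124. They were 36.4 and 28.7 in siY_T cells in DMSO, 58.1 and 44.0 in SRF. The siATF4 libraries held 34.2 and 35.8 CPM in DMSO, and 32.8 and 31.3 in SRF. All 8 knockdown libraries lay below all 4 control libraries. In the same siY_T libraries *ATF4* was lower too than in siCtr cells of the same treatment. Across treatments, siY_T cells in SRF held 315 CPM of *ATF4* and 51.0 of *ASNS*, and siCtr cells in DMSO 248 and 94.4. The part of *ATF4* in the siY_T value was not tested. Against siCtr in DMSO, the log2 fold change was -1.53 ± 0.117 (SE) with siY_T (adjusted p = 2.32e-07) and -1.42 ± 0.117 with siATF4 (adjusted p = 2.22e-07). In SRF it was -1.26 with siY_T (adjusted p = 1.96e-06) and -1.91 with siATF4 (adjusted p = 8.75e-09). Its mean level was 34.5% and 37.1% of control in DMSO, and 41.8% and 26.3% in SRF.

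The 2 knockdowns were also compared directly. In DMSO, siATF4 and siY_T libraries overlapped for *ASNS* and the difference was 0.11 ± 0.117 on the log2 scale (adjusted p = 0.389). In SRF, siATF4 cells were lower than siY_T cells, with a log2 difference of -0.65 ± 0.117 (adjusted p = 0.000184), a call that fell to -0.56 under TMM scaling, below the fold threshold but with adjusted p = 0.000473, and to -0.45 without the siY_T_SRF replicate 1 library. With SRF, *ASNS* rose in siCtr cells by 0.37 ± 0.117 (adjusted p = 0.0142) and in siY_T cells by 0.64 ± 0.117 (adjusted p = 0.000564), but its change in siATF4 cells was -0.12 (adjusted p = 0.395). The siY_T rise was called, and it fell below the fold threshold, to 0.47 and 0.44, without siY_T_DMSO replicate 2 or siY_T_SRF replicate 1. The difference between the siATF4 effect in SRF and in DMSO was -0.49 ± 0.165 (adjusted p = 0.0296), whereas that of siY_T was 0.27 ± 0.165 (adjusted p = 0.265).

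The promoter of *ASNS* is shown because it carries the letters TGATGNAA, the composite element that ATF4 binds together with C/EBP factors. Of the 8 members 5 were searched, *ASNS*, *GLUL*, *GLUD1*, *ALDH18A1* and *GOT1*. Their 7 windows, with more than 1 for *ASNS* and for *GLUL*, came from a RefSeq promoter table (GRCh38.p14). They were placed on GRCh37 by exact match. *PYCR1* and *GPT2* had no entry there, and *PYCR3* was left out of the search. A window of *ASNS* and the window of *GOT1* held that element in the 250 bases before a start, both strands searched. The other *ASNS* window, at chr7:97501478-97501727, did not. Of 35093 RefSeq promoter windows of that length, 3.15% did. The TEAD letters GGAATG were in none of the windows of the 5 members and in 11.9% of all. The *ASNS* match lies at chr7:97501781-97501788 (GRCh37, minus strand, 68 to 61 bases before the start) within exon 1 of 2 annotated *ASNS* transcripts. The *GOT1* match lies at chr10:101190572-101190579 (GRCh37), 198 to 191 bases before its start, on the strand opposite to the gene, and in no annotated exon. The sequences are given 5′ to 3′ on the gene's strand with the element in capitals, 30 bases for *ASNS* at chr7:97501770-97501799, and 250 bases for *GOT1* at chr10:101190382-101190631. *ALDH18A1*, at chr10:97416469-97416718, is set beside them as a member without a match.
ASNS: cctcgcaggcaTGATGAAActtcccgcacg
GOT1: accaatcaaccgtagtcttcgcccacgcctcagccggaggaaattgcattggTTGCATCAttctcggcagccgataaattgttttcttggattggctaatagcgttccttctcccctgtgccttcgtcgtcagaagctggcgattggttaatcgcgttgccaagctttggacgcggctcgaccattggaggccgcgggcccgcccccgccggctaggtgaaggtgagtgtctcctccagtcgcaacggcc
ALDH18A1: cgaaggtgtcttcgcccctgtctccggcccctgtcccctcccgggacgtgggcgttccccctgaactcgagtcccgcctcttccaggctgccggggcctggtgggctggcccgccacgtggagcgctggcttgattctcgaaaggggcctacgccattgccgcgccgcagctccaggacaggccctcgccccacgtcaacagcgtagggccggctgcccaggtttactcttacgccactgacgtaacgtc
The match in *ASNS* stands in a gene that fell with siATF4, and the match in *GOT1* in one whose log2 fold change with siATF4 was 0.03 in DMSO and -0.16 in SRF. A match of these letters is not a measured site, and binding was not measured in these libraries.

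**Figure D2:**
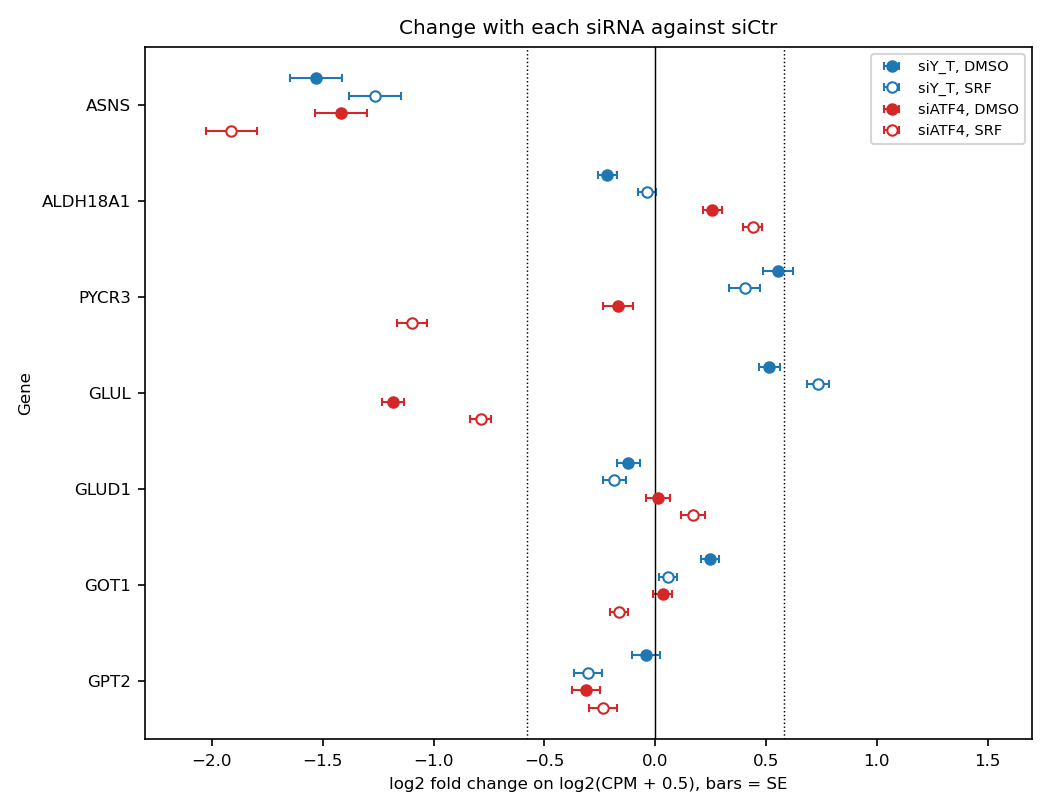
Log2 fold change of 7 members with siY_T (blue) and siATF4 (red) against siCtr in DMSO (filled) and SRF (open), with bars for 1 SE from limma and dotted lines at the fold threshold of 0.58 in either direction. *ASNS* lies left of the threshold in all 4 comparisons, and *GLUL* lies on opposite sides of 0 for the 2 siRNAs.

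*GLUL*, glutamine synthetase (Entrez 2752, minus strand, chr1:182347233-182361341), moved in opposite directions with the 2 siRNAs. Its CPM in siCtr cells were 228 and 218 in DMSO, 233 and 224 in SRF. With siY_T they were 334 and 305 in DMSO, 383 and 376 in SRF. With siATF4 they were 100.0 and 95.7 in DMSO, 134 and 130.1 in SRF. The 3 siRNAs gave 3 separate ranges in each medium. Against siCtr, *GLUL* rose with siY_T by 0.52 ± 0.0489 in DMSO (adjusted p = 1.46e-06) and by 0.73 ± 0.0489 in SRF (adjusted p = 1.18e-07), of which the second passed the fold threshold. It fell with siATF4 by 1.18 on the log2 scale in DMSO (adjusted p = 3.45e-10) and by 0.79 in SRF (adjusted p = 1.01e-08). Without siY_T_DMSO replicate 2, the rise in DMSO was 0.58 and was called.

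Compared directly, *GLUL* in siATF4 cells was 30.7% of its level in siY_T cells in DMSO and 34.8% in SRF, with log2 fold changes of -1.70 and -1.52 (adjusted p = 3.54e-12 and 1.04e-11). In siCtr cells SRF left *GLUL* at 102% of its DMSO level (log2 fold change 0.03, adjusted p = 0.560, libraries overlapping), while it rose by 0.25 in siY_T cells (adjusted p = 0.00087) and by 0.43 in siATF4 cells (adjusted p = 1.37e-05). The difference between the siATF4 effects in SRF and DMSO was 0.40 ± 0.0692 (adjusted p = 0.000636), and for siY_T 0.22 ± 0.0692 (adjusted p = 0.0400).

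*GLUD1*, mitochondrial glutamate dehydrogenase (Entrez 2746, minus strand, chr10:88809959-88854600), stayed within a narrow range, with the lowest library at 138 CPM and the highest at 183. It was called in 0 of the 9 pairwise comparisons. The siCtr libraries held 179 and 175 CPM in DMSO, and 159 and 159 in SRF. Those of siY_T held 173 and 153, and 138 and 141. Those of siATF4 held 183 and 174, and 181 and 177, so that the siATF4 libraries had no separate range in DMSO. *GLUD1* fell with SRF in siCtr cells by 0.16 (adjusted p = 0.0191) and in siY_T cells by 0.22 (adjusted p = 0.00362), and its difference in siATF4 cells was 0.00 (adjusted p = 0.993). Against siCtr in SRF, it fell with siY_T by 0.18 ± 0.0524 (adjusted p = 0.0109) and rose with siATF4 by 0.17 ± 0.0524 (adjusted p = 0.00993). In DMSO its changes were -0.12 with siY_T (adjusted p = 0.0599) and 0.01 with siATF4 (adjusted p = 0.832).

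Reads of *GLUD1* and *GLUD2*, an intronless copy on the X chromosome, can be hard to place. Of the 75-base stretches of the main *GLUD1* transcript, 20.2% occur elsewhere in GRCh37, and the authors kept reads with 1 position in the genome. The study's methods give reads somewhat longer than these stretches, and the share at that length was not computed. Such stretches made up 11.5% of *GLUD2* and at most 2.51% of the other 7 members. *GLUD2* was listed at 36.8 to 47.3 CPM and held 24.6% to 26.8% of the *GLUD1* level in the 12 libraries. The values of these 2 genes are therefore uncertain as levels of each gene on its own.

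**Figure D3:**
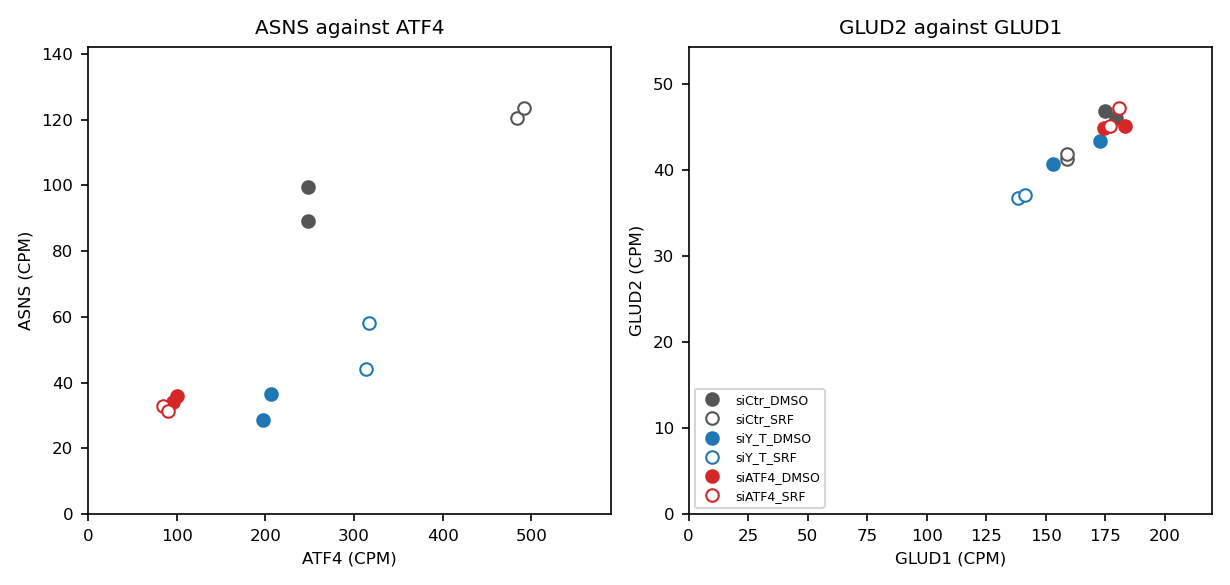
Left, *ASNS* against *ATF4* in the 12 libraries, and right, *GLUD2* against *GLUD1*, all in CPM on linear axes from 0, with colours for the siRNA, filled points for DMSO and open points for SRF. The siY_T libraries lie below the siCtr libraries in *ASNS* at *ATF4* levels between those of siATF4 and siCtr SRF cells, and *GLUD2* lies at 24.6% to 26.8% of *GLUD1* in every library.

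Proline synthesis starts with *ALDH18A1*, P5C synthase (Entrez 5832, minus strand, chr10:97365698-97416468), which was higher in siATF4 cells than in all others. It held 136 and 138 CPM in siCtr cells in DMSO, and 115 and 114 in SRF. It held 122 and 114 with siY_T in DMSO, and 112 and 112 in SRF. It held 163 and 165 with siATF4 in DMSO, and 156 and 156 in SRF, above every library of the other groups. The rise with siATF4 was 0.26 ± 0.0419 in DMSO (adjusted p = 0.00011) and 0.44 ± 0.0419 in SRF (adjusted p = 6.21e-07), neither past the fold threshold. With siY_T it fell by 0.22 in DMSO (adjusted p = 0.000649) and its change in SRF was -0.04 (adjusted p = 0.503). With SRF it fell by 0.25 in siCtr cells (adjusted p = 0.000159), and its changes in siY_T and siATF4 cells were both -0.07 (adjusted p = 0.155 and 0.164).

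The last step of the pathway is P5C reductase. *PYCR1* (Entrez 5831, minus strand, chr17:79890260-79900288), a mitochondrial form, was listed at 0 in 11 of the 12 libraries and at 0.0428 CPM, 2 reads, in siY_T_SRF replicate 1. It did not pass the filter. A count of 0 in these libraries allows up to 3 reads, which is 0.0559 to 0.0724 CPM, for counting error only. Whether reads of *PYCR1* were lost in the gene model or the counting could not be told from the table, so the value is a listed 0 and not a measure of its expression, and no comparison between groups is made. The neighbouring genes *MAFG* and *SIRT7* had medians of 34.7 and 22.6 CPM over the 12 libraries and *MYADML2* was listed at 0 throughout. An antisense lncRNA, not in the table, overlaps 19.5% of the exon bases of *PYCR1*.

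*PYCR3*, a cytosolic form of P5C reductase (Entrez 65263, minus strand, chr8:144685380-144691943), was lower with siATF4 and higher with siY_T. Its CPM were 23.3 and 23.6 in siCtr cells in DMSO, and 18.0 and 19.5 in SRF. They were 36.3 and 33.1 with siY_T in DMSO, and 24.3 and 25.6 in SRF. They were 21.5 and 20.2 with siATF4 in DMSO, and 8.34 and 8.65 in SRF. The 2 siATF4_SRF libraries were below every other library, and the siY_T_DMSO libraries above every other. With siATF4, *PYCR3* fell by 0.17 in DMSO (adjusted p = 0.0440) and by 1.10 in SRF (adjusted p = 1e-08), to 45.3% of control, and the difference between these effects was -0.93 ± 0.0963 (adjusted p = 1.36e-05). With siY_T it rose by 0.55 in DMSO (adjusted p = 1.45e-05) and 0.40 in SRF (adjusted p = 0.000324), below the fold threshold. It fell with SRF under each siRNA, by 0.32 in siCtr, 0.47 in siY_T and 1.25 in siATF4 cells, and passed the fold threshold in the last (adjusted p = 2.57e-08). Without siY_T_DMSO replicate 2, the siY_T rise in DMSO was 0.62 and was called.

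Neither transaminase passed the fold threshold. *GOT1*, cytosolic aspartate transaminase (Entrez 2805, minus strand, chr10:101156627-101190381), lay between 77.2 and 94.7 CPM in all libraries and was called in 0 of the 9 pairwise comparisons. In DMSO, its CPM were 77.2 and 78.9 in siCtr, 94.7 and 91.1 in siY_T and 80.0 and 79.8 in siATF4 cells. In SRF they were 88.9 and 89.0, 91.7 and 93.3, and 80.1 and 78.6. It rose with siY_T in DMSO by 0.25 ± 0.0409 (adjusted p = 0.000173) and with SRF in siCtr cells by 0.19 (adjusted p = 0.00141). Its change with siATF4 was 0.03 in DMSO (adjusted p = 0.484), and it fell by 0.16 in SRF (adjusted p = 0.00276). *GOT2*, the mitochondrial form, was at 226 to 284 CPM.

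*GPT2*, mitochondrial alanine transaminase (Entrez 84706, plus strand, chr16:46918274-46965201), lay between 28.0 and 41.2 CPM and was called in 0 of the 9 pairwise comparisons. In DMSO its CPM were 37.2 and 34.1 in siCtr, 34.6 and 34.5 in siY_T and 29.2 and 28.0 in siATF4 cells. In SRF they were 41.2 and 40.7, 34.9 and 31.4, and 34.0 and 35.5. It fell with siATF4 by 0.31 in DMSO (adjusted p = 0.000605) and by 0.23 in SRF (adjusted p = 0.00399), and with siY_T by 0.30 in SRF (adjusted p = 0.00137). The siY_T change in DMSO was -0.04 (adjusted p = 0.586). *GPT*, the cytosolic form, was at 0.0642 to 0.343 CPM.

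With the drug itself, 0 of the 7 members were called by limma, edgeR or DESeq2 in siCtr cells, where 6 had an unadjusted P under 0.05 with limma, against 5.15% of all genes called lower and 12.3% higher. In siY_T cells 1 was called higher, *ASNS*, and 0 lower (background 5.83% higher and 4.14% lower), and in siATF4 cells 1 was called lower, *PYCR3*, and 0 higher (background 2.95% and 5.68%). By adjusted p under 0.05, 6, 4 and 3 members passed, against 63.2%, 52.9% and 50.4% of all genes. Of all genes called with SRF, 70.5% were higher in siCtr, 58.5% in siY_T and 65.8% in siATF4 cells, and with quantile normalization 52.3%, 46.9% and 54.7%. Of the siATF4 against siY_T comparisons, 2 members were called lower and 0 higher in DMSO, where 22.7% and 13.0% of genes were, and 3 lower and 0 higher in SRF, where 23.7% and 14.8% were. An adjusted p under 0.05 was reached by 6 of 7 members in each, and by 77.3% and 78.8% of all genes. The called members were *GLUL* and *PYCR3* in both, with *ASNS* added in SRF. Of all genes called, 36.3% and 38.5% were higher in siATF4 cells, and 51.6% and 51.5% with quantile normalization, which moved the median of all genes from -0.06 to 0.07 in both.

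**Figure D4:**
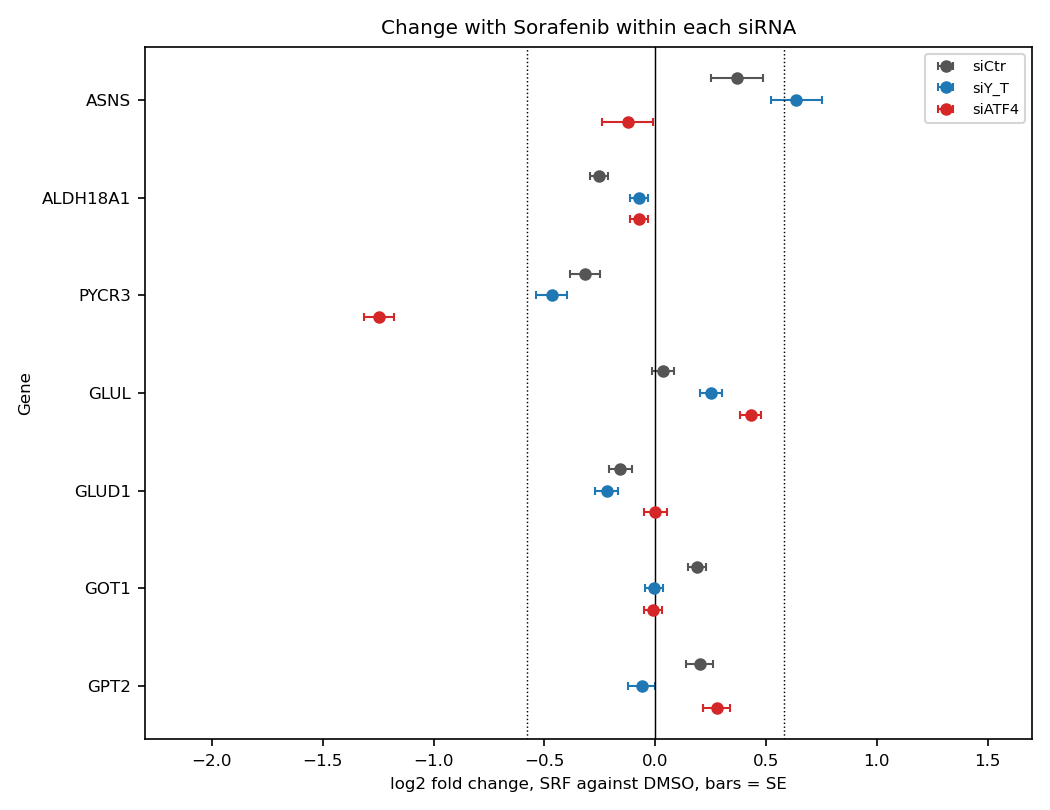
Log2 fold change of 7 members with SRF against DMSO in siCtr (grey), siY_T (blue) and siATF4 (red) cells, with bars for 1 SE from limma and dotted lines at 0.58 in either direction. *ASNS* passes the threshold in siY_T cells at 0.64, and *PYCR3* passes it in siATF4 cells at -1.25.

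Differences between the effect of an siRNA in SRF and in DMSO reached an adjusted p under 0.05 for 4 members with siY_T and 5 with siATF4, against 22.0% and 41.1% of all genes. The siY_T set was *ALDH18A1*, *GPT2*, *GOT1* and *GLUL*, each with an adjusted p between 0.0318 and 0.0493, and its count was 0 in a fit of only the groups compared. It was also 0 without the siCtr_DMSO replicate 2 library, without either siATF4_DMSO library and without either siCtr_SRF library. The siATF4 set was *ASNS*, *ALDH18A1*, *PYCR3*, *GOT1* and *GLUL*, of which *PYCR3* and *GLUL* passed under all 22 alternatives tried. Its count was 2 to 6 when 1 library was left out, and 2 without siATF4_DMSO replicate 1.

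Levels between genes were compared per kilobase of exon. In siCtr cells in DMSO, *GLUD1* stood at 43.4 ± 0.800 CPM per kb (SD, n = 2), *ALDH18A1* at 40.9 ± 0.334 and *GOT1* at 39.5 ± 0.603, close to each other, followed by *ASNS* at 32.2 ± 2.51 and *GLUL* at 24.4 ± 0.726. *GPT2* at 7.96 ± 0.491 and *PYCR3* at 6.74 ± 0.0601 were lower, and *PYCR1* was listed at 0. A lncRNA on the same strand covers 82.4% of the *ASNS* exon bases and is not in the table, so reads of the 2 cannot be told apart.

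Other genes of these pathways were described from lists. The shares of all genes called in the same comparisons are those given above for the members. Of 6 genes of asparagine and aspartate metabolism 4 were tested, and 0 were called in the 4 knockdown comparisons against siCtr by limma, edgeR or DESeq2, with 2 to 4 at an unadjusted P under 0.05. Among genes of proline and ornithine metabolism, *ARG2*, mitochondrial arginase, rose with siATF4 in DMSO from 6.45 to 15.6 CPM (log2 fold change 1.21, adjusted p = 7.3e-08), and *ODC1*, ornithine decarboxylase, rose from 415 to 736 CPM (0.83, adjusted p = 1.7e-09). With siATF4 in SRF, *ODC1* was called higher at 0.71 (adjusted p = 5.1e-09), and *ARG2* rose by 0.56 (adjusted p = 7.5e-05), below the fold threshold. Of 8 glutamine and glutamate genes 5 were tested, of which 1 was called lower and 0 higher with siATF4, and 1 higher and 0 lower with siY_T, in both media. The gene called was *ABAT* each time, at 0.0594 to 3.20 CPM, and named here after its values were seen.

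Of the 9 glutamine amidotransferases, which like *ASNS* take the amide of glutamine, 1 was called lower and 1 higher with siY_T in DMSO. The background there was 3.61% and 11.0%. *CTPS1*, CTP synthase, went from 243 ± 5.37 to 138 ± 13.0 CPM (log2 fold change -0.82, adjusted p = 1.4e-07), and *GFPT2* from 17.4 ± 0.293 to 28.9 ± 7.75 CPM (0.69, adjusted p = 0.00074). The *GFPT2* libraries with siY_T held 34.4 and 23.4 CPM, and without the higher, siY_T_DMSO replicate 1, its log2 fold change was 0.42 and was not called. In SRF, 1 was called lower with siY_T by limma, *GFPT2* (-0.78), against a background of 3.84%. By edgeR and by DESeq2, 2 genes of this list were called there. *CTPS1* also fell with siY_T in SRF (log2 fold change -0.54, adjusted p = 8.7e-06), below the fold threshold. With siATF4, 0 were called in DMSO by limma, edgeR or DESeq2, though 7 had an unadjusted P under 0.05. In SRF 2 were called higher with siATF4 (background 10.3%), *CTPS1* (0.82) and *PPAT* (0.78). *CTPS1* stood at 237 CPM with siATF4 in DMSO and 222 in SRF. In siCtr cells it fell with SRF from 243 to 126 CPM (log2 fold change -0.95, adjusted p = 3.8e-08). *PPAT* stood at 78.0 and 76.7 CPM with siATF4, and at 61.0 and 44.4 in siCtr cells. Of 7 genes of the malate-aspartate shuttle, in which *GOT1* takes part, 6 were tested. In the 4 knockdown comparisons against siCtr 0 were called by any of the 3 tools, with 3 to 5 at an unadjusted P under 0.05. Of 9 beta-catenin targets, listed because *GLUL* is one in liver, 2 passed the filter and 0 were called there by any of the 3 tools, with 0 to 2 at an unadjusted P under 0.05.

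All 10 genes of the ATF4 network list were tested. With SRF in siCtr cells 9 were called higher and 1 lower (background 12.3% and 5.15%). In siATF4 cells 0 were higher and 2 lower (background 5.68% and 2.95%). The medians of the list were 1.19 and 0.04, against 0.05 and 0.03 for all genes. With siATF4, 4 were called lower and 5 higher in DMSO (background 14.1% and 8.57%), and 6 lower and 0 higher in SRF (background 18.7% and 10.3%). *SESN2*, among the lower calls in SRF at -0.64, was at -0.55 and not called without siATF4_SRF replicate 1. *VLDLR* fell from 22.6 to 7.72 CPM in DMSO, while *DDIT3*, which encodes CHOP, rose from 25.7 to 107 CPM and *CEBPB* from 26.4 to 126 CPM. With siY_T 1 was called lower and 2 higher in DMSO (background 3.61% and 11.0%), and 5 lower and 1 higher in SRF (background 3.84% and 6.11%). The lower call in DMSO, *ATF5* at -0.58, was lost without siCtr_DMSO replicate 1 and, at -0.53, without siY_T_DMSO replicate 2. These lists give context for the members and no test of a list was run.

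The genes most like each member over the 12 libraries, by Pearson's r of log2 values among 11152 genes whose mean was 5 CPM or more, were as follows, as a description with no test. The points share groups and libraries, so high values are common. For *ASNS* they were *PSAT1* (r = 0.988), *XPOT* (0.947) and *C1orf115* (0.941). For *GLUL* they were *C5orf15* (0.995), *TSC22D1* (0.992) and *UBQLN2* (0.992). For *GLUD1* they were *NANS* (0.975), *GLUD2* (0.971) and *HMGN1* (0.963), and for *ALDH18A1* *UTP6* (0.998), *NOLC1* (0.994) and *UTP4* (0.993). For *PYCR3* they were *SLC29A1* (0.988), *MCL1* (0.988) and *SEC16A* (0.981). For *GOT1* they were *OSCP1* (0.983), *LGALS3* (0.975) and *NIT1* (0.974), and for *GPT2* *KSR1* (0.954), *GPC1* (0.951) and *TRAM2* (0.943).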

How the data were processed

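RNA of 12 libraries was sequenced by the authors, mapped to hg19 with STAR keeping unique hits, and counted over RefSeq mRNA exons with QuasR. The deposited values are CPM, scaled to 1000000 reads on genes per library, for 26258 genes. The labels give poly(A) RNA on a NextSeq and the methods a HiSeq and biological triplicates, whereas 2 libraries per group are in the table. The methods and labels differ in the Sorafenib dose, and that of the labels is given. All 12 columns were mapped to a group. In each library 100% of the deposited CPM values came within 0.001 of a whole number of reads, which gave whole reads for the count tests. Column totals ranged from 41408348 to 53619732 reads, and intervals and floors cover counting error only.

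The 13515 genes that reached 1 CPM in 2 or more libraries were fitted with limma 3.58.1 in R 4.3.3 as log2(CPM + 0.5), with limma's mean-variance trend, 1 coefficient per group and Benjamini-Hochberg adjustment over all genes tested. Fold changes on this scale understate those of low genes. A call needed an unadjusted P under 0.05 and a log2 fold change of 0.58 or more in either direction, and a difference between effects at an adjusted p under 0.05. Alternatives were pseudocounts of 0.1 and 1, no filter and a filter at 5 CPM, a fit restricted to the compared groups, TMM scaling, a block for the replicate number, quantile normalization, edgeR 4.0.16 and DESeq2 1.42.0 on whole reads, an adjusted p with a log2 fold change of at least 1, and leaving out each library. Reads were simulated for siY_T against siCtr in DMSO with 13515 genes. Of these, 200 with a mean of 5 CPM or more were changed by 1.5 on the log2 scale, and smaller changes were not simulated. The changes went up and down in equal numbers, so an uneven balance like that of the siY_T calls was not simulated either. From these reads limma recovered 200 with 1 wrong call. Wrong calls numbered 20 for edgeR and 8 for DESeq2. Where no gene was changed, limma called 0 genes, edgeR 10 and DESeq2 3. Named genes are the 8 members, the siRNA targets, copies of members, up to 3 called genes per list whose mean reaches 5 CPM, and the 3 genes most like each member. Outside that rule, *ABAT*, *ATF5*, neighbours of *PYCR1* and cell type markers are named, chosen after their values were seen. One item, and the counts that need it, are not reported here. Members and lists were chosen with earlier results of these data known. Positions and overlaps came from GENCODE on GRCh37 and promoters from RefSeq.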

Additional observations from a re-analysis of the deposited data

Results flagged for a closer look

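The effect of an siRNA on a member differed between SRF and DMSO, by a test of the difference itself, in 9 cases (limma, adjusted p under 0.05). Of all genes, 22.0% passed this test with siY_T and 41.1% with siATF4. With siATF4 the cases were *PYCR3* at -0.93 on the log2 scale (adjusted p = 1.36e-05), *ASNS* at -0.49 (adjusted p = 0.0296), *GOT1* at -0.20 (adjusted p = 0.0161), *GLUL* at 0.40 (adjusted p = 0.000636) and *ALDH18A1* at 0.18 (adjusted p = 0.0272). A positive value means that the log2 fold change was more positive, or less negative, in SRF than in DMSO. For *GLUL* with siATF4 it thus marks a smaller fall in SRF. With siY_T they were *GLUL* at 0.22 (adjusted p = 0.0400), *ALDH18A1* at 0.18 (adjusted p = 0.0458), *GOT1* at -0.19 (adjusted p = 0.0318) and *GPT2* at -0.26 (adjusted p = 0.0493). Of the 22 alternatives, *PYCR3* and *GLUL* with siATF4 passed under 22, *GOT1* with siATF4 under 18, and *ASNS* and *ALDH18A1* with siATF4 under 13. With siY_T, *GOT1* passed under 10, *GLUL* and *GPT2* under 8 and *ALDH18A1* under 6. With 2 libraries in a group, no single library could be examined as standing apart from the others of its group.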

How the results depend on the processing

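Of 1757 values of members under alternatives, 1645 kept their direction and side of the threshold, 87 lost the call, 7 gained it and 18 changed sign, the last all with an adjusted p above 0.6. The numbers of members called were within 1.5 times of the reported ones except as follows. With an adjusted p under 0.05 and a log2 fold change of at least 1, the count was 1 for siY_T in SRF, 0 for SRF in siY_T cells and 1 for siATF4 against siY_T in DMSO. The count of siY_T differences between effects was 2 without a filter, 2 with TMM scaling, 2 with quantile normalization, 2 with edgeR, 1 with DESeq2 and 0 in a fit of only the groups compared, and that of siATF4 was 3 with DESeq2. Leaving out 1 library gave 1 to 3 members for siY_T in DMSO (3 without siY_T_DMSO replicate 2), 0 to 1 for SRF in siY_T cells, 0 to 3 for the siY_T and 2 to 6 for the siATF4 differences between effects. With the replicate number as a block, the counts were 1 and 2 for siY_T and siATF4 in DMSO, 2 and 3 in SRF, and 3 and 5 for the differences between effects. Deviations of same-numbered libraries correlated between -0.28 and 0.19 between groups, so the numbers were not taken as pairs. The following rises and falls kept their direction but not an adjusted p under 0.05 under every alternative. With 1 library left out, *ASNS* with SRF in siCtr cells gave 0.29 to 0.45, and *PYCR3* with siATF4 in DMSO -0.21 to -0.12. *GLUD1* gave -0.18 to -0.14 with SRF in siCtr cells. Against siCtr in SRF, it gave -0.20 to -0.17 with siY_T and 0.15 to 0.19 with siATF4.

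The signs that changed belonged to values near 0. *GOT1* with siY_T in SRF was -0.0075 after quantile normalization. With SRF, *GLUL* in siCtr cells was -0.028 with TMM and -0.0082 with DESeq2, and *GLUD1* in siATF4 cells was -0.022 with TMM, -0.028 with edgeR and -0.033 with DESeq2. Leaving out 1 library gave ranges of -0.10 to 0.021 for *GPT2* with siY_T in DMSO, -0.022 to 0.048 for *GLUD1* with siATF4 in DMSO, and -0.056 to 0.28 and -0.0047 to 0.14 for *ASNS* and *GPT2* in siATF4 against siY_T in DMSO and SRF. It gave -0.034 to 0.022 and -0.13 to 0.012 for *GOT1* and *GPT2* with SRF in siY_T cells, -0.035 to 0.036 and -0.023 to 0.0039 for *GLUD1* and *GOT1* with SRF in siATF4 cells, and -0.15 to 0.026 for the siY_T difference of *GLUD1*. The cause of these changes was not tested. The lowest library of any of the 7 tested members held 404 reads, for *PYCR3*, and 2 libraries a group limit every comparison.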
